A study of Mus musculus with 14 samples.

Results

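The adenylyl cyclase genes described here are Adcy1, Adcy2, Adcy3, Adcy5, Adcy6, Adcy7, Adcy8 and Adcy9, 8 genes of the 39017 in the count table, and all 8 passed the filter on low counts that kept 21298 genes. The family was chosen on these data, because Adcy9 was higher in the libraries of susceptible mice, so every comparison of susceptible mice that involves a member is given as a description with no test. The libraries came from the hippocampus of male mice on a C57BL/6 background that carried a Cre-dependent EGFP-L10a allele and PV-Cre, in every group, so that parvalbumin (PV) neurons bore a tagged ribosomal protein. Mice were 8 to 12 weeks old at the start. Translating ribosome affinity purification (TRAP) pulled the tagged ribosomes and their RNA out of the homogenate, and both hippocampi of 1 mouse made 1 TRAP sample.

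Defeated mice met an aggressive CD-1 mouse for 5 minutes a day over 10 days, a protocol called chronic social defeat stress (CSDS). For the rest of each day a perforated divider kept the aggressor apart from the defeated mice. A social interaction ratio below 1 classed them as susceptible, and the others as resilient. TRAP RNA was measured in 4 non-defeated mice, which had no contact with CD-1 mice over the days of defeat, 4 resilient mice and 3 susceptible mice. A further 3 input libraries held RNA of non-defeated homogenate taken before the purification, which the study's design calls total RNA although the sample labels name the molecule as translating RNA. Library totals ran from 64110214 to 94726962 counts. The tag follows the PV-Cre driver, and in such bulk samples fewer cells of a type and less RNA per cell cannot be told apart.

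Adenylyl cyclases make cyclic AMP (cAMP) from ATP. The stimulatory G proteins Gs and Golf raise their activity, inhibitory Gi proteins lower that of several members, and cAMP then acts through protein kinase A (PKA), the Epac exchange factors and the CREB transcription factor until phosphodiesterases break it down. The membrane-bound members differ in how they sense other signals. ADCY1, ADCY3 and ADCY8 form the group stimulated by calcium and calmodulin, ADCY2 and ADCY7 respond to the beta and gamma subunits of G proteins, ADCY5 and ADCY6 are inhibited by Gi and by calcium, and ADCY9 stands apart as the member least sensitive to the drug forskolin. In the hippocampus the calmodulin-stimulated cyclases are known for their part in synaptic plasticity.

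The purification was checked on markers before the members were read. All 9 PV interneuron markers were higher in non-defeated TRAP than in input, and their summed level was 663 ± 55.9 CPM (read counts scaled to a common library size after TMM; SD, n = 3) in input and 4416 ± 161 (n = 4) in non-defeated TRAP. All 6 excitatory neuron markers, all 5 oligodendrocyte markers and all 5 microglial markers were lower in TRAP, though none of these sums reached 0. Of 5 astrocyte markers only 3 were lower, and their sum was 1657 ± 62.6 CPM in input and 1170 ± 243 in non-defeated TRAP. Of 6 markers of other interneurons 4 were lower, and 2, Sst and Npy, were higher in TRAP. Excitatory neuron markers still summed to 215 to 396 CPM in the 11 TRAP libraries. PV interneuron markers summed to 4344 ± 342 CPM in resilient (n = 4) and 4117 ± 686 CPM in susceptible libraries (n = 3). The 5 thalamic markers summed to 142 to 696 CPM in 4 TRAP libraries (non-defeated 9 and 11, resilient 7, susceptible 10), to 313 CPM in input 14 and to at most 79.9 CPM elsewhere, and several results are also given without these 5 libraries. The 4 red blood cell markers summed to 115 to 240 CPM in non-defeated, 127 to 588 CPM in resilient, 885 to 1218 CPM in susceptible and 774 to 981 CPM in input libraries.

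Adcy9 (ENSMUSG00000005580; GRCm38 chromosome 16, 4287529 to 4420498, minus strand) was the member that set the susceptible libraries apart. Its level was 13.4, 12.2 and 12.35 CPM in susceptible libraries 2, 4 and 10. It was 6.76, 9.11, 7.05 and 9.07 CPM in non-defeated libraries 1, 6, 9 and 11. It was 6.04, 7.57, 8.67 and 8.40 CPM in resilient libraries 3, 5, 7 and 8. Each susceptible library was thus above every non-defeated and every resilient library, while the non-defeated and resilient ranges overlapped. Means were 12.6 ± 0.643 CPM in susceptible (SD, n = 3), 7.996 ± 1.27 in non-defeated (n = 4) and 7.67 ± 1.18 in resilient mice (n = 4).

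The log2 fold change of Adcy9 was 0.66 (SE 0.15) between susceptible and non-defeated mice, a ratio of 1.58. Between susceptible and resilient mice it was 0.72 (SE 0.15), a ratio of 1.65. These are the values that chose the family, and the comparisons share the susceptible libraries. They are a description and support nothing. Without the 5 libraries high in thalamic markers they were 0.69 and 0.80. The counts behind them were 900 to 973 reads in susceptible libraries and 470 to 840 in the other TRAP libraries.

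The input libraries had 10.1, 9.71 and 8.16 CPM of Adcy9, below each susceptible library. The red blood cell markers moved with the susceptible group, with 2 of 4 higher than in non-defeated and 4 of 4 higher than in resilient libraries, and their part in the Adcy9 difference was not tested. The 4 endothelial markers, of which 0 passed the test, summed to 3.29 to 5.88 CPM in non-defeated, 8.03 to 13.04 CPM in susceptible and 4.18 to 18.2 CPM in resilient libraries. Susceptible and non-defeated libraries did not overlap in this sum, and its part was not tested either. The sums of excitatory neuron markers were alike, at 308 ± 41.8, 307 ± 76.6 and 307 ± 62.0 CPM in non-defeated, resilient and susceptible libraries. The 6 markers of other interneurons summed to 429 to 635, 439 to 794 and 505 to 877 CPM in those groups, ranges that overlap. Their means were 514 ± 93.2, 544 ± 167 and 749 ± 212 CPM. Susceptible libraries 2 and 4 (866 and 877 CPM) lay above every non-defeated and resilient library, and library 10 (505 CPM) did not. The part of other interneurons in the Adcy9 difference was not tested. No marker of the excitatory neuron and other interneuron lists passed the test in either comparison of susceptible mice. The pseudogene Gm6142 lies within an intron of Adcy9 on the same strand and shares 0 of its exonic bases. Gm6142 had 7.8 to 9.5 CPM in susceptible libraries, above the 5.84 to 7.53 CPM of resilient libraries. In non-defeated libraries it had 6.25 to 9.09 CPM, which overlapped the susceptible ones. Its part in the Adcy9 counts was not tested.

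The promoter of Adcy9 is shown because it belongs to the member on which the family was chosen. RefSeq places it at chr16:4420449-4420748 (GRCm38.p6, minus strand), 250 bases before and 50 after the start. Capitals mark TGACG, the core of a cAMP response element, at position 227 counted from the first base.
Adcy9: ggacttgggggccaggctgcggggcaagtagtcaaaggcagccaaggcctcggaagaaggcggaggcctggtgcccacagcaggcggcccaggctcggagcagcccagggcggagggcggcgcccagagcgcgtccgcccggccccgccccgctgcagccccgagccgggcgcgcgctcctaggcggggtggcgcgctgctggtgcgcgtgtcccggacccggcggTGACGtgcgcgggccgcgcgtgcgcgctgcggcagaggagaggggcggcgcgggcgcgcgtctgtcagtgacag
The full element TGACGTCA was in 0 of the 9 promoters held for 6 of the members and in 1.79% of all 32851 promoters of that length. The core, searched as TGACG and its reverse CGTCA, so that it also lies within each full element, was in 2 of those 9 promoters, one of Adcy9 and one of Adcy7, and in 20.8% of all. No match says only that these letters were not in the window, and a match describes the letters alone. Adcy6 and Adcy8 had no entry.

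**Figure D1:**
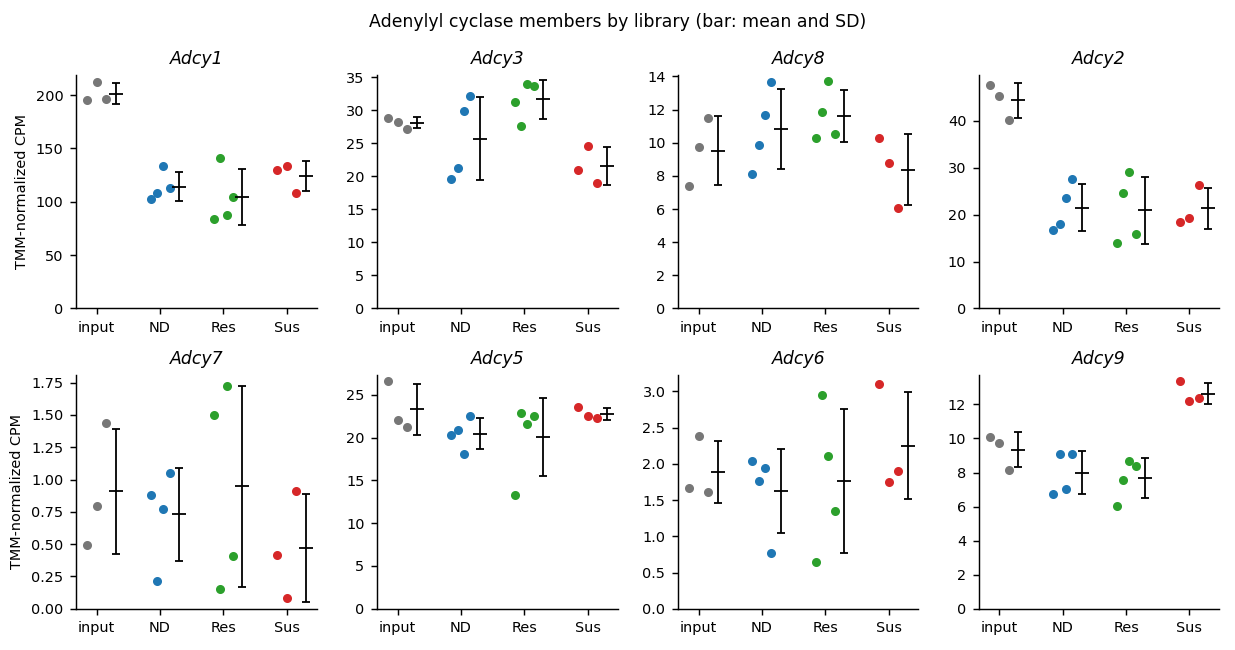
Level of each member in TMM-normalized CPM (vertical axes, from 0, a separate scale for each gene) in the 3 input, 4 non-defeated (ND), 4 resilient (Res) and 3 susceptible (Sus) libraries. Points are libraries, and the black bars give mean and SD. The 3 susceptible points of Adcy9 lie above all other libraries, and the input points of Adcy1 and Adcy2 lie above all TRAP libraries.

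Levels were compared between members per kilobase of exon (RPKM), because exon length runs from 4211 bases in Adcy2 to 12522 bases in Adcy1. In non-defeated TRAP the order was Adcy1 (9.12 ± 1.07 RPKM), Adcy2 (5.10 ± 1.20), Adcy3 (4.12 ± 1.003), Adcy5 (2.85 ± 0.254), Adcy9 (1.54 ± 0.243), Adcy8 (1.33 ± 0.294), Adcy6 (0.240 ± 0.0856) and Adcy7 (0.108 ± 0.0536; SD, n = 4 each). Neighbours whose libraries overlapped in this order were Adcy2 with Adcy3, Adcy9 with Adcy8, and Adcy6 with Adcy7. The order was the same in input and in susceptible mice. In resilient mice Adcy3 (5.07 ± 0.477 RPKM) stood above Adcy2 (4.96 ± 1.70), with overlapping libraries.

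Adcy9 made up 9.56% ± 0.510 of the summed RPKM of the 8 members in susceptible libraries (n = 3), 6.36% ± 1.12 in non-defeated (n = 4), 6.06% ± 0.685 in resilient (n = 4) and 4.75% ± 0.352 in input libraries (n = 3). The summed level itself was 25.5 ± 0.791 RPKM in susceptible, 24.4 ± 3.24 in non-defeated and 24.5 ± 3.65 in resilient mice, so the groups overlapped in the family's total. In input it was 37.7 ± 1.55 RPKM. In susceptible libraries Adcy9 (2.35 to 2.57 RPKM) overlapped neither Adcy5 above it nor Adcy8 below it.

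**Figure D2:**
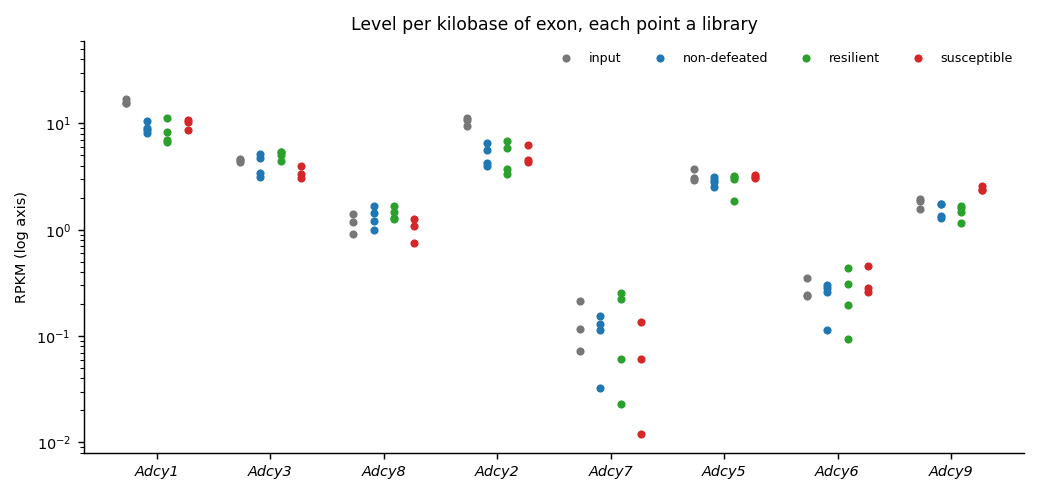
Level of the 8 members per kilobase of exon (RPKM, log axis), with 1 point for each library, coloured by group. Adcy1 is the highest in every group, and Adcy6 and Adcy7 lie below 0.5 RPKM in each library.

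The first tested question was which members PV neuron TRAP holds less or more of than the whole hippocampus. Adcy1 and Adcy2 were the members that fell. Adcy1 (ENSMUSG00000020431; chromosome 11, 7063489 to 7178506, plus strand), the calmodulin-stimulated cyclase best known from learning, had 195, 213 and 196 CPM in input libraries 12, 13 and 14. It had 103, 108, 133 and 113 CPM in non-defeated TRAP libraries 1, 6, 9 and 11. The groups did not overlap, and the log2 fold change was -0.82 (SE 0.15, adjusted p = 0.000421 by edgeR's quasi-likelihood test).

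Adcy2 (ENSMUSG00000021536; chromosome 13, 68620043 to 68999541, minus strand), a cyclase that G protein beta and gamma subunits stimulate together with Gs, had 47.6, 45.3 and 40.3 CPM in input. It had 16.8, 17.9, 23.6 and 27.6 CPM in non-defeated TRAP libraries 1, 6, 9 and 11. These groups did not overlap either, and the log2 fold change was -1.05 (SE 0.24, adjusted p = 0.00171). With these, 2 of 8 members were lower in TRAP and 0 higher, while 55.0% of all genes tested passed the threshold and 27.6% passed it with a lower level in TRAP. Libraries did not overlap for 2 of 8 members and for 62.0% of all genes tested. The median log2 fold change was -0.22 over the members and -0.04 over all genes tested.

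The other members were not distinguishable between TRAP and input. Adcy8, the third calmodulin-stimulated form and the one with the only positive difference, had a log2 fold change of 0.18 (95% interval -0.27 to 0.64, adjusted p = 0.481). For Adcy9 it was -0.22 (-0.54 to 0.10, adjusted p = 0.23) and for Adcy5 -0.19 (-0.53 to 0.15, adjusted p = 0.332). Adcy6 and Adcy7, at 55 to 168 and 20 to 129 reads a library here, had intervals of -1.13 to 0.71 and -2.0 to 1.35, so a 2-fold change lies within both intervals. Adcy3 had a log2 fold change of -0.13 (-0.47 to 0.21, adjusted p = 0.512). Without the 5 libraries high in thalamic markers it was -0.47 (adjusted p = 0.0142), which makes 3 members lower in TRAP.

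**Figure D3:**
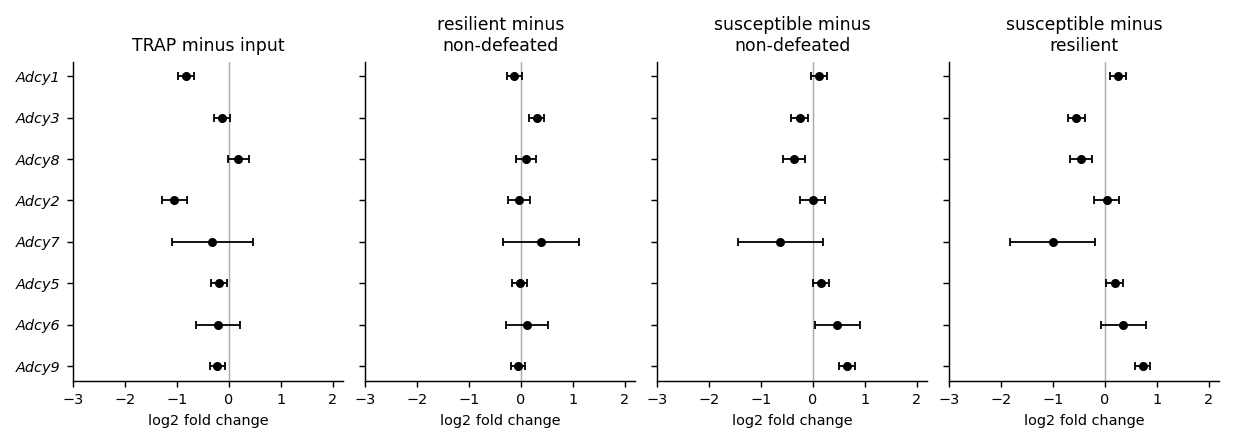
Log2 fold change of each member (horizontal axes) in 4 comparisons, TRAP against input being that of non-defeated mice. Points are estimates of the joint edgeR fit and bars 1 SE on each side. Adcy1 and Adcy2 lie below 0 in TRAP against input, the points of resilient against non-defeated lie between -0.13 and 0.38, and Adcy9 lies above 0 in both comparisons of susceptible mice, which chose it.

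No member differed by the test between resilient and non-defeated mice. The share of genes tested that passed was 0.0%, that is 0 genes by edgeR and 0 by DESeq2, with 933 at an unadjusted p under 0.05. With all libraries in, the groups overlapped for all 8 members, against 2.35% of all genes tested without overlap. The difference farthest from 0 relative to its error was that of Adcy3, with a log2 fold change of 0.30 (SE 0.15, 95% interval -0.01 to 0.61, adjusted p = 1.0). Without the 5 libraries high in thalamic markers it was 0.59 (adjusted p = 0.311). Adcy3 then ran from 19.6 to 21.2 CPM in the 2 non-defeated and from 27.6 to 33.7 CPM in the 3 resilient libraries left. These ranges do not overlap. The share of all genes without overlap in so small a set was not computed, so nothing is read from this. The log2 fold change of Adcy8 was 0.10, and 0.28 without the libraries high in thalamic markers. For Adcy9 the interval was -0.36 to 0.24, for Adcy1 -0.44 to 0.18, for Adcy5 -0.34 to 0.29, for Adcy2 -0.51 to 0.43 and for Adcy8 -0.32 to 0.52. A 2-fold difference thus lies outside the intervals of these members. The intervals of Adcy6 (-0.74 to 0.97) and Adcy7 (-1.17 to 1.94) were wider, and that of Adcy7 includes it.

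Beside Adcy9, the members Adcy3 and Adcy8 had susceptible libraries apart from the resilient ones, as had 15.1% of all genes tested. Adcy3 (ENSMUSG00000020654; chromosome 12, 4133103 to 4213525, plus strand), the cyclase known from olfactory neurons and primary cilia, had 20.96, 24.6 and 19.0 CPM in susceptible libraries 2, 4 and 10. In resilient libraries 3, 5, 7 and 8 it had 31.3, 27.6, 34.0 and 33.7 CPM, all higher. The non-defeated libraries 1, 6, 9 and 11 had 19.6, 21.2, 29.9 and 32.3 CPM and overlapped the susceptible libraries, of which library 10 was below all 4. The log2 fold change was -0.56 (SE 0.16) between susceptible and resilient mice and -0.26 (SE 0.16) between susceptible and non-defeated mice.

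The high non-defeated values of Adcy3 were those of libraries 9 and 11, the non-defeated libraries rich in thalamic markers. Without the 5 such libraries the log2 fold change was 0.16 between susceptible and non-defeated mice, with the sign turned, and -0.43 between susceptible and resilient mice. The part of thalamic tissue in these values was not tested. The cDNA kit does not mark strand, and Cenpo, a centromere protein gene on the opposite strand, shares 1380 bases or 22.1% of the exonic length of Adcy3. Reads from that stretch cannot be told apart. Cenpo had 21.8 ± 0.732, 23.3 ± 1.14 and 23.3 ± 5.96 CPM in non-defeated, resilient and susceptible libraries. In susceptible libraries 2, 4 and 10 it had 24.65, 28.5 and 16.8 CPM, ranked as Adcy3 is there. Its values were 21.9, 22.75, 21.1 and 21.4 CPM in non-defeated libraries 1, 6, 9 and 11. They were 24.6, 21.8, 23.3 and 23.3 CPM in resilient libraries 3, 5, 7 and 8. In neither of these groups was the order that of Adcy3. The part of Cenpo in the Adcy3 counts was not tested.

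Adcy8 (ENSMUSG00000022376; chromosome 15, 64697084 to 64922296, minus strand), which calcium stimulates through calmodulin at synapses, had 10.3, 8.79 and 6.08 CPM in susceptible libraries 2, 4 and 10. It had 10.3, 11.9, 13.7 and 10.6 CPM in resilient libraries 3, 5, 7 and 8. The groups were apart by a margin of 10.27 against 10.28 CPM. Non-defeated libraries 1, 6, 9 and 11 had 8.10, 9.85, 11.7 and 13.7 CPM and overlapped the susceptible ones. The log2 fold change was -0.47 (SE 0.21) against resilient and -0.37 (SE 0.21) against non-defeated mice, and without the 5 libraries high in thalamic markers it was -0.19 and 0.08. Susceptible library 10 also had the lowest PV interneuron marker sum of all TRAP libraries, 3425 CPM. Libraries 2 and 4 had 4131 and 4796 CPM. Of the susceptible libraries, library 10 was the lowest for 4 of 8 members and the highest for 2. The part of its PV marker sum in these levels was not tested.

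The remaining members overlapped between susceptible mice and both other groups. Adcy1 had 130, 134 and 108 CPM in susceptible libraries 2, 4 and 10 and 84.0, 141, 87.3 and 104.5 CPM in resilient libraries 3, 5, 7 and 8. Its log2 fold change was 0.12 (SE 0.15) against non-defeated and 0.25 (SE 0.15) against resilient mice, and the former was 0.32 without the libraries high in thalamic markers. Adcy2 had 18.3, 19.3 and 26.3 CPM in susceptible and 14.04, 24.6, 29.1 and 15.8 CPM in resilient libraries, with log2 fold changes of -0.01 (SE 0.24) and 0.03 (SE 0.24).

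Within each group Adcy2 was highest in the libraries with the highest sums of excitatory neuron and oligodendrocyte markers. These were non-defeated 9 and 11, resilient 5 and 7 and susceptible 10, which also had the highest astrocyte sums of their groups. Their thalamic sums were the highest as well, but that of resilient 5 (58.3 CPM) hardly differed from that of resilient 8 (57.8 CPM). Other interneuron markers did not follow Adcy2, and were lowest in non-defeated 11, resilient 7 and susceptible 10. In resilient libraries 3, 5, 7 and 8 the excitatory neuron markers summed to 215, 396, 333 and 284 CPM, the order of Adcy2 but for libraries 5 and 7, which trade places. The contribution of other cells, or of thalamic tissue, to the TRAP level of Adcy2 was not tested. Adcy5, a Gi-inhibited cyclase prominent in striatum, had 22.2 to 23.6 CPM in susceptible, 18.1 to 22.5 in non-defeated and 13.3 to 22.9 in resilient libraries. Adcy6, the other Gi-inhibited form, was between 0.642 and 3.11 CPM in all TRAP libraries, and Adcy7, known from immune cells, between 0.0812 and 1.72 CPM. Their log2 fold changes against resilient mice were 0.18 (SE 0.16), 0.35 (SE 0.43) and -1.01 (SE 0.81). Leaving out 1 library moved that of Adcy6 to between 0.05 (without susceptible library 2) and 0.72 (without resilient library 5), and that of Adcy7 to between -1.94 (without susceptible library 10) and -0.51 (without susceptible library 4). Without the 5 libraries high in thalamic markers they were 0.56 and -1.46.

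Over the family, libraries did not overlap for 1 of 8 members between susceptible and non-defeated mice, against 8.62% of all genes tested, and for 3 of 8 members between susceptible and resilient mice, against 15.1%. Because the members were chosen on these libraries, nothing is read from those counts. Median log2 fold changes over the members were 0.06 and 0.11, and over all genes tested 0.01 and 0.00281. The differences of the 8 members were 4 positive and 4 negative against non-defeated mice, and 5 positive and 3 negative against resilient mice.

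**Figure D4:**
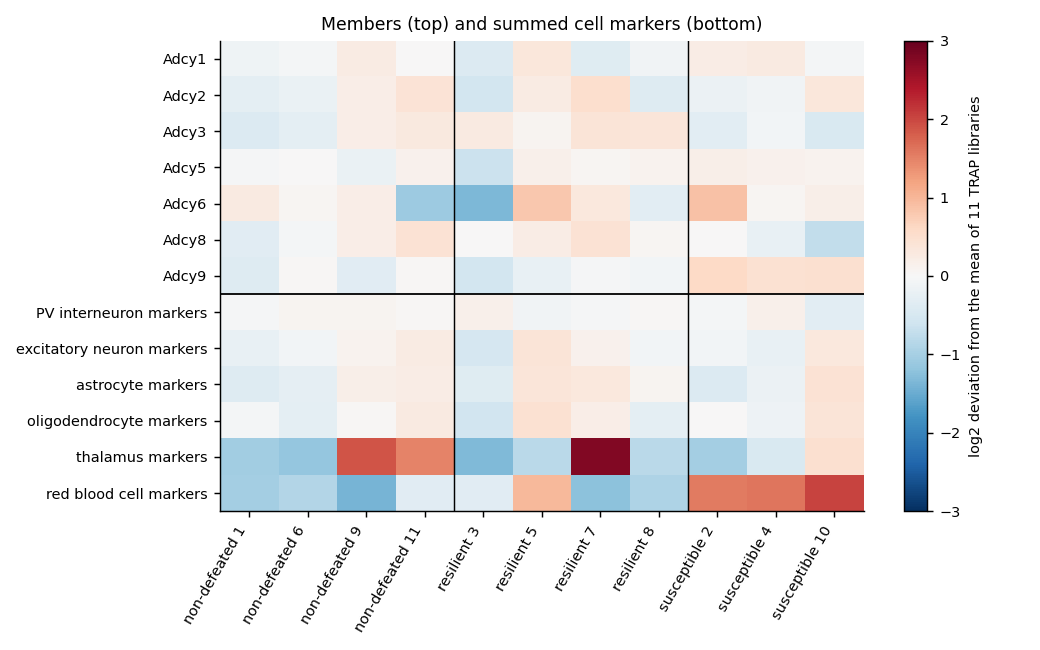
Log2 deviation of 7 members (rows above the line) and of summed cell markers (rows below it) from the mean of the 11 TRAP libraries (columns, split by group), with red for higher and blue for lower. Adcy7 is left out because of its low counts. Adcy9 is red in the 3 susceptible columns, as are the red blood cell markers, and the thalamic markers are highest in resilient 7 and non-defeated 9.

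The remaining cyclase genes were near the detection limit. Adcy4, the close relative of Adcy2 and Adcy7, had 0 to 36 reads a library, and its log2 fold change between TRAP and input was 0.01 with an interval of -2.28 to 2.31. Adcy10, the soluble cyclase that bicarbonate activates, had 0 to 11 reads in TRAP and 8 to 25 reads in input libraries and did not pass the filter.

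The genes around the cyclases were read from 12 lists of 121 genes, which include Adcy4 and Adcy10 and of which 119 were tested. Between TRAP and input, 22 were higher and 55 lower, with a median log2 fold change of -0.37. Of all genes tested 55.0% passed the threshold, 27.6% with a lower level in TRAP, and their median was -0.04. The counts per list below stand against those shares. Among G proteins that stimulate cyclases, Gnal, the Golf alpha subunit, rose from 122 ± 12.7 CPM in input (n = 3) to 223 ± 19.1 in TRAP (n = 4; log2 fold change 0.87, SE 0.15, adjusted p = 0.00016). Gnas, the Gs alpha subunit, had 1468 ± 13.02 and 1681 ± 171 CPM and missed the threshold (adjusted p = 0.0884). Of 5 inhibitory alpha subunits, 4 were lower in TRAP, with log2 fold changes of -0.50 for Gnai1, -0.75 for Gnai2, -0.88 for Gnai3 and -0.37 for Gnao1.

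Beta and gamma subunits went both ways, with 3 higher and 8 lower of 15. Gng3, a neuronal gamma subunit, rose (log2 fold change 0.90, adjusted p = 5.28e-05), as did Gnb5, the beta subunit that pairs with regulators of G protein signalling (0.28, adjusted p = 0.00529). Gng12 fell by 3.02 and Gng11 by 1.99 on the log2 scale. In the list of calmodulin and calcineurin genes Calm3 (0.37, adjusted p = 0.0136) and Ppp3cc (0.34) were higher, and Ppp3ca (-0.90) and Ppp3r1 (-0.83) lower. Calm2 did not pass the test (adjusted p = 0.213).

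The genes that remove cAMP were lower in 8 and higher in 3 of 15 cases. Pde4a rose from 137 ± 1.56 to 284 ± 6.31 CPM (log2 fold change 1.05, adjusted p = 1.07e-07) and Pde4d also rose (0.84), whereas Pde1a (-1.43) and Pde7a (-0.94) fell. Of 9 genes for PKA subunits and inhibitors 4 were higher, including the catalytic subunit Prkaca (0.62) and the regulatory subunit Prkar1b (0.42, adjusted p = 0.00018), and 3 lower, including the inhibitors Pkia (-1.68) and Pkig (-0.91). Prkacb had 455 CPM in input and 484 CPM in TRAP (adjusted p = 0.462). Both Epac genes, Rapgef3 (-0.59) and Rapgef4 (-1.28), were lower. So were 3 of 10 anchoring proteins, Akap1 (-0.60), Akap10 (-0.37) and Akap13 (-1.20), and 5 of 8 CREB factors and coactivators, with Creb1 at -1.01 and Crtc2 at -1.25.

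Receptors upstream of the cyclases went both ways. Of 17 Gs-coupled receptors 4 were higher and 6 lower. Gpr3, an orphan receptor with constant activity, rose from 2.32 ± 0.246 to 13.6 ± 1.17 CPM (log2 fold change 2.55, adjusted p = 1.61e-08), and the beta adrenergic receptor gene Adrb1 by a smaller amount (0.48), while Vipr1 (-2.17) and Drd5 (-1.65) fell. Of 28 Gi-coupled receptors 5 were higher, including the muscarinic receptor Chrm2 (2.23) and the delta opioid receptor Oprd1 (2.10), and 14 lower, including the adenosine receptor Adora1 (-1.92) and the cannabinoid receptor Cnr1 (-1.44).

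**Figure D5:**
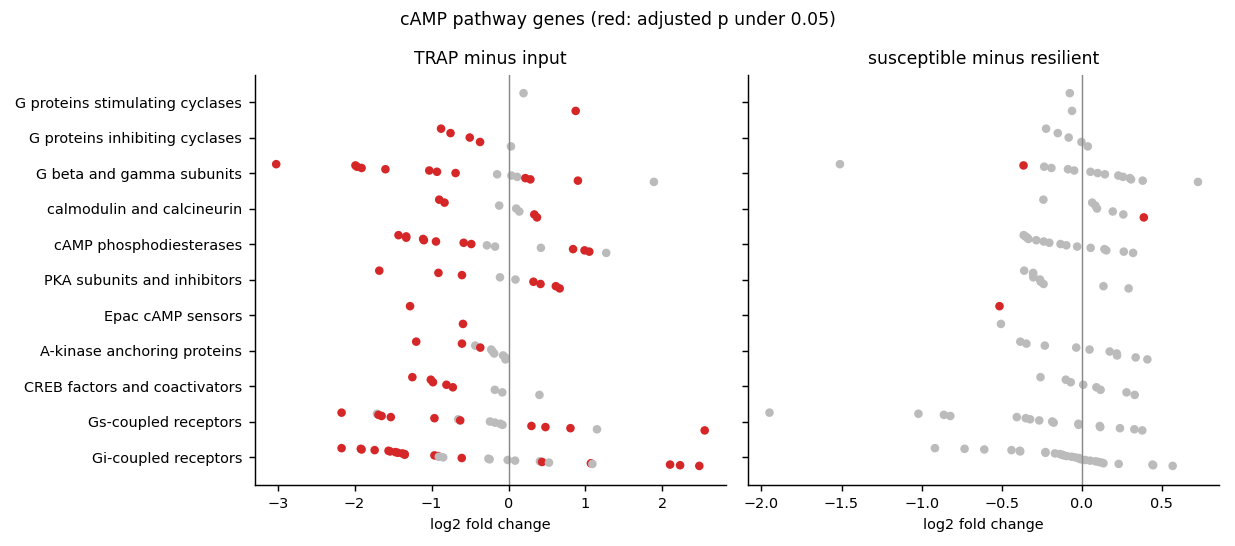
Log2 fold change (horizontal axes) of the tested cAMP pathway genes by list (rows), for non-defeated TRAP against input on the left and susceptible against resilient mice on the right. Each point is a gene, and red points have an adjusted p under 0.05. On the left 22 genes are red above 0 and 55 below, and on the right 1 above and 2 below.

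Between groups of mice few of these genes passed. None of 119 differed between resilient and non-defeated mice by edgeR or DESeq2 (4 at an unadjusted p under 0.05 by edgeR, against 933 of all 21298 genes tested). None differed between susceptible and non-defeated mice, where 0.0376% of all genes tested passed. By edgeR 20 of the 119 had an unadjusted p under 0.05, as did 2835 of all 21298 genes tested. DESeq2 put 0 of the 119 past the threshold, and 113 of all genes. Between susceptible and resilient mice 1 gene was higher and 2 were lower, with 1.89% of all genes tested past the threshold. In that comparison 24 of the 119 had an unadjusted p under 0.05 by edgeR, as did 4461 of all 21298 genes tested. Ppp3cb, a catalytic subunit of the calcium-dependent phosphatase calcineurin, rose from 134 ± 7.03 CPM in resilient (n = 4) to 176 ± 7.03 in susceptible mice (n = 3; log2 fold change 0.39, SE 0.06, adjusted p = 0.0227). Rapgef4, which encodes the brain Epac, fell from 149 ± 16.3 to 104.5 ± 13.5 CPM (-0.51, SE 0.11, adjusted p = 0.0393). Gnb5 fell from 189 ± 7.70 to 147 ± 13.6 CPM (-0.36, SE 0.08, adjusted p = 0.0382).

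None of these 3 passed when only the 11 TRAP libraries or only the compared groups were fitted (adjusted p 0.0834 to 0.147), or without susceptible library 2 or resilient library 3, 7 or 8 (0.0505 to 0.15). Prkar1b (-0.26, adjusted p = 0.0689) lay just outside the threshold in the same comparison. Gnas (-0.06), Gnal (-0.08), Calm2 (0.19), Calm3 (0.06) and Prkacb (-0.24) had adjusted p-values of 0.184 to 0.81.

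The genes whose log2 level was most like that of Adcy9 over the 11 TRAP libraries, of 15991 compared, were Nectin1 (Pearson r = 0.907), Elp6 (0.907), the unnamed gene ENSMUSG00000091095 (0.90), Lmtk3 (0.891) and Ktn1 (0.889). Nectin1, a cell adhesion molecule, had 4.64 to 7.01 CPM in susceptible, 3.29 to 3.43 in non-defeated and 2.51 to 3.66 in resilient libraries. These libraries share the group difference that defines the pattern, so the coefficients are a description. Among the members, r with Adcy9 was 0.68 for Adcy5, 0.383 for Adcy1, -0.347 for Adcy8 and -0.45 for Adcy3.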

How the data were processed

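RNA from TRAP of hippocampal PV neurons (11 libraries) and from input (3 libraries) was made into cDNA from 1 ng with SMART-Seq v4 and read as single 150 bp reads. The authors trimmed reads with fastp, aligned them to mm10 with STAR (2.5.3a in the submitters' processing notes, which also name HTSeq) and deposited raw counts per gene without normalization. The gene annotation used for counting is not given in the sources used here. Names and exon lengths were taken from GENCODE mouse release 21 (GRCm38).

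Samples were grouped by their treatment labels. All 14 libraries, of 64110214 to 94726962 counts, were fitted together in R 4.3.3 with edgeR 4.0.16 (TMM, the default filter on low counts, quasi-likelihood test, Benjamini-Hochberg adjustment over 21298 genes, threshold 0.05, 2-sided). Standard errors are the log2 fold change over the square root of its F. CPM and RPKM were computed after TMM scaling, and correlations on log2 CPM (prior count 2) over genes of at least 1 CPM on average. Nothing in the labels says more of how replicates were raised. The p-values measure the spread between libraries, which for TRAP is that between mice. The labels do not say whether each input library came from a separate mouse.

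The members and the lists of pathway genes and markers were chosen with earlier results of these data known. Named were the members, Adcy4 and Adcy10, 7 pathway genes fixed by name (1 is not reported here), pathway genes past the threshold (where more than 4 of a list passed, the 2 with the smallest p per direction) and the 5 genes most like Adcy9. Other interneuron, thalamic, striatal, astrocyte, endothelial and oligodendrocyte precursor markers were read as well: 4 of 4 striatal, 3 of 5 astrocyte, 1 of 2 precursor and 4 of 6 other interneuron markers were lower in TRAP, and 2 other interneuron, 1 endothelial and 1 thalamic marker higher. Alternatives were DESeq2 1.42.0, the likelihood ratio test, other scaling, filters and sample sets, and leaving out each library. The set without 5 libraries high in thalamic markers (summed CPM above 100) was an addition made with the data in view. Simulated data served to test the fits.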

Additional observations from a re-analysis of the deposited data

Results flagged for a closer look

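Adcy5 in resilient library 3 stood far from the other resilient libraries, at 13.3 CPM (13.31) against 21.6 to 22.9 CPM in libraries 5, 7 and 8. It was the only one of 16 gene and group pairs looked at that stood out in this way, and chance flags about 1 in 20. The same library was the lowest of the 4 resilient libraries for 6 of 8 members. It also had the lowest resilient sums of excitatory neuron markers (215 CPM) and oligodendrocyte markers (122 CPM) and the highest sum of PV interneuron markers (4784 CPM). The part of these in its Adcy5 level was not tested.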

How the results depend on the processing

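Over 752 values recomputed under alternatives, no called difference changed sign. Adcy1 and Adcy2 stayed lower in TRAP under each of 14 alternatives. The 3 calls among pathway genes between susceptible and resilient mice depended on the fit. The number higher, 1 as reported, was 2 with DESeq2, 2 with the likelihood ratio test, 2 without the libraries high in thalamic markers, 4 with the title number as a covariate, and 0 with only the 11 TRAP libraries or only the 2 groups. The number lower, 2 as reported, was 5 with the likelihood ratio test, 1 with no filter on low counts, 6 with the title number as a covariate, and 0 with only the TRAP libraries or only the 2 groups. Leaving out each library gave 0 to 2 higher and 0 to 5 lower, both highest without susceptible library 10. Without resilient library 5 the number lower was 0, and without susceptible library 4 it was 1. Ppp3cb passed in 10, Rapgef4 in 9 and Gnb5 in 7 of 16 alternatives. Against non-defeated mice the likelihood ratio test called 1 higher and 2 lower, where the other alternatives called 0. Why these counts moved was not tested. Scaling by total counts alone moved the input levels of Adcy1, Adcy2 and Adcy3 to 222.5, 49.0 and 31.1 CPM. No paired analysis was made, because the labels do not say which input and TRAP libraries, if any, came from the same mouse. If some did, the test of TRAP against input leaves that pairing out. Adcy6 and Adcy7 have the lowest counts of the members and the widest intervals, and whether depth or the spread between mice sets those was not tested.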
